A study of Mus musculus with 24 samples.

Results

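Wild-type mouse embryos at embryonic day 8.5 (E8.5) were compared with wild-type mouse embryos at E9.5, to describe how the transcripts of a whole embryo changed over a day of normal development. The comparison used 8 of the 24 libraries of the series, which were the 4 wild-type (WT) embryo libraries at E8.5 and the 4 WT embryo libraries at E9.5. The other libraries were embryos lacking Cmtr2, an enzyme that methylates the cap of mRNAs, and yolk sacs, and no library of either kind entered any result below other than a check of the labels. The WT embryos were littermates of Cmtr2 knockout (KO) embryos. No treatment was named, and the strain, the sex, the number of embryos in a library and any further allele were not given in the sources used here. The series text gives 2 litters as the source at E8.5 and 4 at E9.5, and the litter of each library was not given. The p-values therefore measure the spread between these 8 samples, some of which shared a litter.

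At E8.5 a mouse embryo is closing its neural tube, adding somites from the tail end and looping a first beating heart tube, while red cells made in the yolk sac begin to enter it. Over the following day it turns, becomes enclosed in its membranes, forms pharyngeal arches, otic and optic rudiments and forelimb buds, and the earliest neurons appear. The visceral endoderm is an absorptive and secretory layer that covers the early embryo and later lines the yolk sac, and it makes many plasma proteins before there is a liver.

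RNA was sequenced as paired fragments, and the level of a gene is given as length-matched FPKM, which is fragments per kilobase of a single gene length used at both stages, as a share of all fragments of the library. This scale was needed because the deposited tables of the stages had divided by different gene lengths. Depth was 17154464 to 23538444 fragments in the E8.5 libraries and 16862468 to 19224966 in the E9.5 libraries. Stage and table could not be told apart, since each stage was counted and deposited as a table of its own. Genes reaching a level of 1 in 4 or more of the 8 libraries were tested, and calls were made in limma where the p adjusted by Benjamini and Hochberg's method was under 0.05. All fold changes are E9.5 minus E8.5 on the log2(level + 0.5) scale, with the standard error (SE) from limma, and they understate the change of genes with low levels.

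The libraries of a stage were not equal, and the differences between them touch several results. Correlations across genes ran from 0.943 to 0.975 within E8.5 and from 0.919 to 0.971 within E9.5. E8.5 replicates 3 and 4 held more visceral endoderm RNA than replicates 1 and 2, with 1.16 and 0.935 percent of all fragments in the 35 genes of that list against 0.404 and 0.348 percent. E8.5 replicate 4 also held the most RNA of decidua and parietal endoderm, the tissues around the embryo, at 0.959 percent against 0.2 to 0.319 percent. E9.5 replicates 1 and 3 held little RNA of heart muscle and tailbud. The heart muscle list took 0.064 and 0.0634 percent of fragments in replicates 1 and 3 against 0.243 and 0.252 percent in replicates 2 and 4. For many lists, counts or medians are also given with some of these libraries left out. In bulk samples, fewer cells of a type and less RNA per cell cannot be told apart. Xist, an RNA of the inactive X chromosome, had a level of 11.9, 0.105, 21.9 and 25.1 at E8.5 and of 0.0793, 41.8, 0.056 and 0.266 at E9.5. It was thus unevenly spread over the stages, and how the sex of the embryos moved other genes was not tested.

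Of 12101 genes tested, 1290 rose between the stages (10.7 percent) and 1606 fell (13.3 percent). With a change of at least 2-fold as well, 400 genes rose (3.31 percent) and 610 fell (5.04 percent). The 4 libraries of a stage did not overlap those of the other in 1594 genes higher at E9.5 (13.2 percent) and 1889 genes lower (15.6 percent). The median log2 fold change of all genes tested was -0.05. The balance of the directions depended on the scaling: with no scaling beyond library depth 1721 genes rose and 1150 fell, with quantile normalization 1571 rose and 1205 fell, and with a gene length trend removed 1405 rose and 1141 fell. The counts for E9.5 replicates 2 and 4 alone were 448 risen (3.46 percent) and 583 fallen (4.51 percent). For E8.5 replicates 1 and 2 alone, they were 804 (6.24 percent) and 891 (6.91 percent). Without E9.5 replicate 3, they were 798 and 1003.

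**Figure D1:**
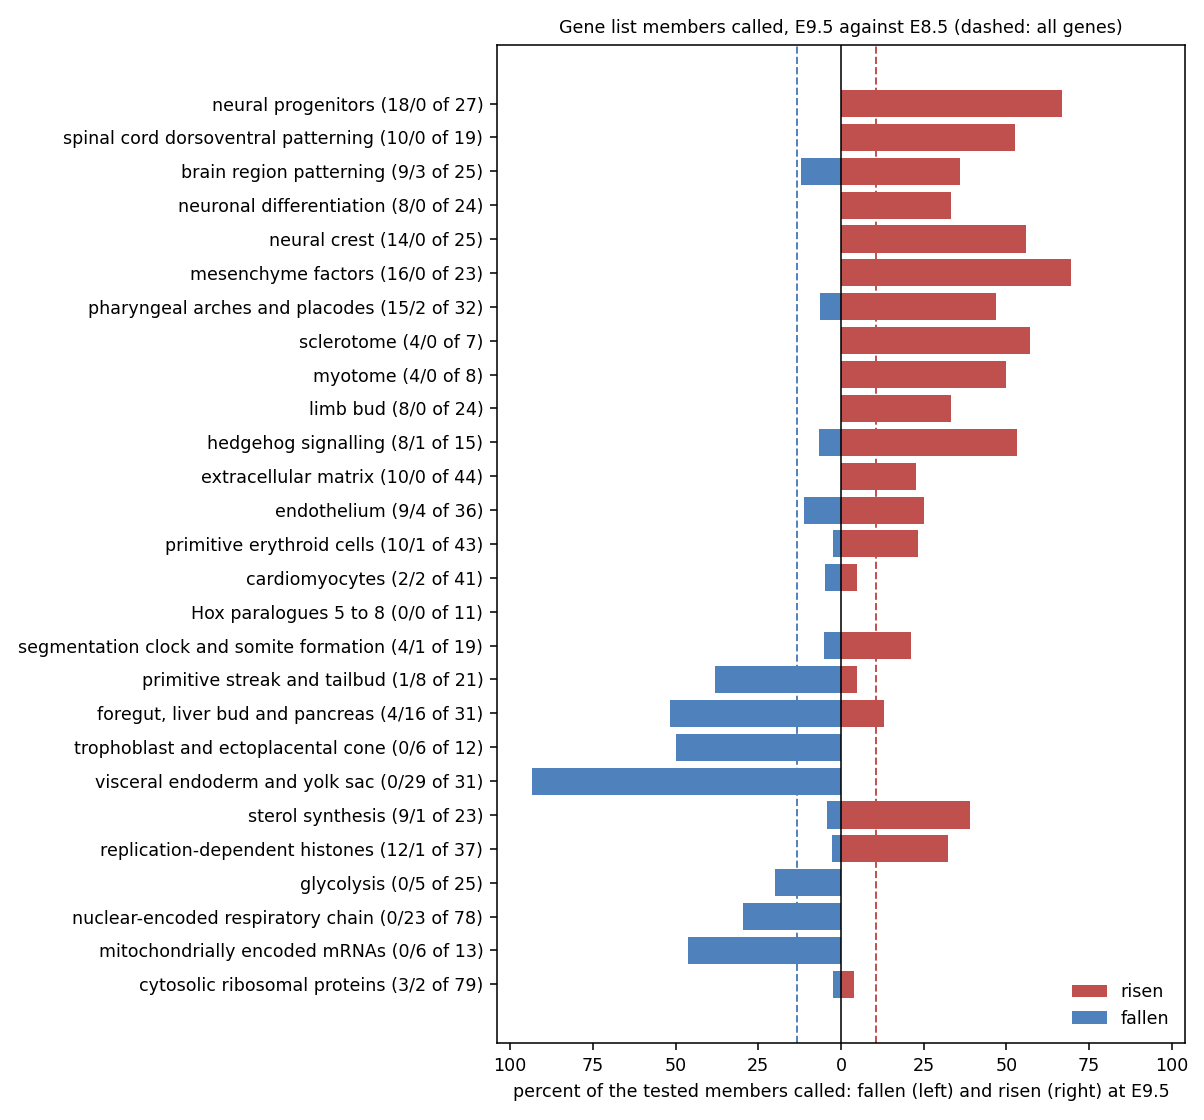
Percent of the tested members of 27 gene lists that fell (left, blue) or rose (right, red) at E9.5, with the counts risen/fallen of those tested beside each name. Dashed lines give the shares over all genes tested, 13.3 percent fallen and 10.7 percent risen. Lists of neural, neural crest and mesenchyme genes lie to the right and the visceral endoderm list lies farthest to the left.

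Cmtr2, the gene removed in the other libraries of the series (GRCm38 chromosome 8, 110215665 to 110224486, plus strand), was present in all 8 WT libraries. Its level was 3.45, 3.48, 3.46 and 3.03 at E8.5 and 3.71, 3.79, 3.57 and 2.55 at E9.5, so the stages overlapped (log2 fold change 0.01, SE 0.16, adjusted p = 0.98). Before scaling across libraries, the WT libraries of both stages ranged from 2.62 to 3.84 and the KO embryo libraries from 0.239 to 0.711. In all 24 libraries of the series, the genotype tag contradicted the title, and the libraries were grouped by title. The Cmtr2 level went with the title in the embryo libraries, and no yolk sac library was read for it. Of the 15 tested genes for cap enzymes and cap-binding proteins, 1 rose and 1 fell: Pcif1, which methylates the first adenosine of capped mRNAs (0.49, SE 0.15, adjusted p = 0.0445), and Ramac, the partner of the cap guanine methyltransferase (-0.62, SE 0.12, adjusted p = 0.00839). The risen and the fallen share of this list were 6.67 percent each, below the 10.7 and 13.3 percent of all genes. The Pcif1 call was kept in 1 of the 8 fits that left out a library. With the gene length trend removed, neither Pcif1 nor Ramac was called (adjusted p = 0.0921 for Pcif1 and 0.0744 for Ramac).

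Genes of the visceral endoderm fell more than those of any other list that was described. Of 35 genes listed, 31 were tested, 29 fell and none rose, with a median log2 fold change of -3.96. Of the 31, 1 passed the filter through a single stage. The whole list took 0.348 to 1.16 percent of fragments at E8.5 and 0.0519 to 0.192 percent at E9.5. Lrp2 and Serpina1b, the tested members that were not called, also had values below 0 (-1.39 and -0.87).

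Apoa1, the main protein of high-density lipoprotein (chromosome 9, 46228580 to 46230466, plus strand), had levels of 479, 400, 921 and 749 at E8.5 and of 0, 84.2, 3.94 and 30.2 at E9.5. All E8.5 libraries were far above all E9.5 libraries, and within E9.5 replicate 2 was the highest (-6.11, SE 1.31, adjusted p = 0.0105). Apom, another lipoprotein protein, had 112, 92.7, 262 and 222 at E8.5 against 0.486, 16.7, 0.893 and 7.27 at E9.5 (-5.42, SE 0.83, adjusted p = 0.00327). Amn, which with Cubn forms the receptor through which this layer takes up proteins, had 34.5, 18.1, 138 and 99.2 at E8.5 against 0, 7.68, 0.436 and 2.92 (-4.85, SE 0.89, adjusted p = 0.00591).

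Among the other members that fell were the secreted carriers Rbp4 (-5.06), for retinol, and Afp (-4.44), for fetal plasma, the protease Ctsh (-4.54), the lipoprotein assembly factor Mttp (-3.54) and the 3 fibrinogen chains Fga, Fgb and Fgg (-3.49, -3.83 and -3.83). Hnf4a, a transcription factor of visceral endoderm and liver, was counted in the foregut list and fell from 15, 10.8, 51.6 and 34.6 to 0, 2.96, 0.396 and 0.774 (-4.33, SE 0.62, adjusted p = 0.00282). The 2 stages did not overlap for any of Apoa1, Apom, Amn, Rbp4 and Afp. Afp was called in 3 of the 8 fits that left out a library.

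Calls and sizes depended in part on the libraries used. With E8.5 replicates 1 and 2 alone, 17 of the list fell, none rose and the median was -3.29. In that comparison Apom, Ctsh, Mttp, Fgb and Fgg kept their calls, while Apoa1 (-5.65, adjusted p = 0.0727), Amn (-3.75, adjusted p = 0.0516), Rbp4 (-4.43, adjusted p = 0.0525), Fga (-3.06, adjusted p = 0.058) and Afp (-3.86, adjusted p = 0.166) did not pass. With E9.5 replicates 2 and 4 alone, which kept more of this RNA than replicates 1 and 3, 20 fell, none rose and the median was -2.98. With E8.5 replicates 1 and 2 against E9.5 replicates 2 and 4, Apoa1 (-3.10, adjusted p = 0.0179) and Apom (-3.14, adjusted p = 0.0165) fell, and Afp (-1.44, adjusted p = 0.211) and Cubn (-0.97, adjusted p = 0.171) did not pass. How much visceral endoderm each embryo carried after dissection was not tested.

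Of the foregut, liver bud and pancreas list, 31 members were tested, 16 fell and 4 rose, but 4 of the 16 (Ttr, Apom, Spink1 and Afp) also belong to the visceral endoderm list. Without the shared genes, 12 of 27 fell and 4 rose, with a median of -1.01. The risen share of the whole list, 12.9 percent, was near the 10.7 percent of all genes. Krt8 and Krt18, the paired keratins of simple epithelia, are on this list and on that of amnion, allantois and surface ectoderm, of which 7 of 22 tested genes fell and 3 rose. They fell from 329 to 445 and 241 to 332 at E8.5 to 58.5 to 146 and 54 to 94.4 at E9.5 (-1.99, SE 0.24, adjusted p = 0.00181, and -1.82, SE 0.19, adjusted p = 0.00121). The 4 that rose were Nkx2-1, Sox2, Prox1 and Shh, each of which is also used outside the gut. Of the 4, Nkx2-1 alone was called in all 8 fits that left out a library, but it entered the test only through E9.5, where it was high. Of the 31 tested members, 3 passed the filter through a single stage.

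Calls among trophoblast genes of the placenta depended on E8.5 replicates 3 and 4. Of 29 listed, 12 were tested, 6 fell and none rose, with a median of -1.19, and 2 of the 6 were called in all 8 fits that left out a library. Of the same 12, 1 rose and 1 fell with E8.5 replicates 1 and 2 alone (median -0.72). Phlda2, an imprinted gene that limits placental growth, had 145, 91, 211 and 204 at E8.5 and 6.01, 10.6, 4.89 and 29.8 at E9.5 (-3.89, SE 0.50, adjusted p = 0.00199). The defining trophoblast gene Tpbpa was near 0 in every library, at 0.424 or below, while Prl3d1 of trophoblast giant cells reached 19.5 in E8.5 replicate 4 and 20 in E9.5 replicate 3. The trophoblast list took 0.0841 and 0.066 percent of fragments in E8.5 replicates 1 and 2, 0.218 and 0.227 percent in replicates 3 and 4, and 0.0794 to 0.126 percent at E9.5. Phlda2 fell with E8.5 replicates 1 and 2 alone as well (-3.48, adjusted p = 0.021).

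**Figure D2:**
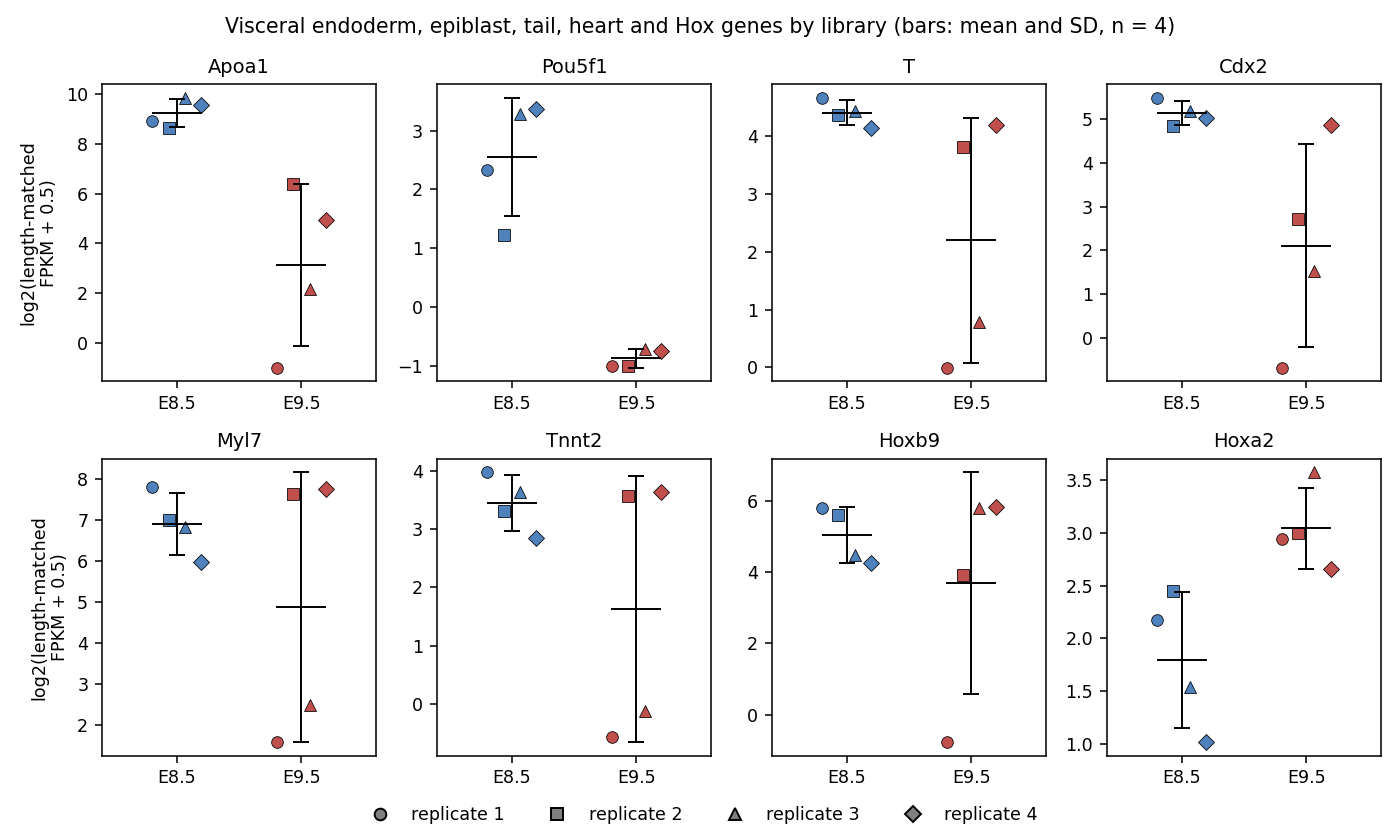
Level of 8 genes in each library, as log2(length-matched FPKM + 0.5), at E8.5 (blue) and E9.5 (red). Symbols mark the replicate number, and horizontal and vertical bars give the mean and SD of the 4 libraries. Apoa1 and Pou5f1 are separated by stage, whereas T, Cdx2, Myl7, Tnnt2 and Hoxb9 are spread within E9.5, where replicate 1 is the lowest.

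Pou5f1 (Oct4), a transcription factor of the epiblast and germ line (chromosome 17, 35506018 to 35510772, plus strand), was near 0 at E9.5. Its level was 4.56, 1.83, 9.19 and 9.82 at E8.5 and 0, 0, 0.112 and 0.0978 at E9.5 (-3.41, SE 0.43, adjusted p = 0.00192). Within E8.5 the higher values were those of replicates 3 and 4, the libraries with more visceral endoderm RNA. Pou5f1 was below 1 in every E9.5 library, so it entered the test only through E8.5, where it was high. It fell in all 8 fits that left out a library, and with E8.5 replicates 1 and 2 alone (-2.64, adjusted p = 0.0172).

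Other genes of the early embryo's chromatin and RNA programmes changed by less. L1td1, an RNA-binding protein of pluripotent cells, fell (-2.88, SE 0.58, adjusted p = 0.00824). Of 16 pluripotency genes 7 were tested, 2 fell and none rose, while Nanog stayed below 1 in every library. Dnmt3b, the enzyme that sets new DNA methylation in the early embryo, had 36.7, 28.5, 39.6 and 36.5 at E8.5 and 22.3, 14, 13.7 and 18.5 at E9.5 (-1.04, SE 0.18, adjusted p = 0.0044). Tet3, which oxidizes methylated cytosine, rose (0.98, SE 0.19, adjusted p = 0.00692), and Dnmt1, which copies methylation at replication, rose by less (0.43, SE 0.13, adjusted p = 0.0356), a call kept in 2 of the 8 fits that left out a library.

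Lin28a, which blocks maturation of the let-7 microRNAs, was among the more abundant of these transcripts and fell. Its level was 299, 246, 264 and 226 at E8.5 and 153, 109, 107 and 172 at E9.5, with no overlap (-0.95, SE 0.18, adjusted p = 0.00633). Its paralogue Lin28b did not pass the test (0.45, SE 0.15, adjusted p = 0.0594). Hmga2, a chromatin protein whose mRNA is a let-7 target, rose from 50.7 to 68.9 at E8.5 to 86.6 to 105 at E9.5 (0.71, SE 0.13, adjusted p = 0.00583). Dicer1, the nuclease that cuts microRNA precursors, rose as well (0.71, SE 0.13, adjusted p = 0.00575). Of the 13 tested members of this axis, 4 rose and 1 fell.

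Genes of the primitive streak and tailbud, which supply new trunk tissue at the tail end, were lower at E9.5 as a list, but by an amount that rested on E9.5 replicates 1 and 3. Of 30 listed, 21 were tested, 8 fell, 1 rose and the median was -1.49. Of the 21, 2 passed the filter through a single stage. The median was -0.47 with E9.5 replicates 2 and 4 alone, with 3 fallen and 1 risen. T (Brachyury), which is required to form posterior mesoderm, had 24.9, 20.2, 21.3 and 17.2 at E8.5 and 0.496, 13.6, 1.22 and 17.9 at E9.5. Replicates 2 and 4 of E9.5 stood close to the E8.5 range and replicates 1 and 3 far below it, and T did not pass the test (-2.21, SE 0.85, adjusted p = 0.085). Cdx2, a caudal homeobox factor, had 0.121, 6.05, 2.38 and 28.9 at E9.5 against 28.2 to 44.3 at E8.5. It was called (-3.03, SE 0.93, adjusted p = 0.0404) and lost the call with replicates 2 and 4 alone (adjusted p = 0.143). Wnt3a, a tailbud ligand, was not called (0.04, SE 0.22, adjusted p = 0.915).

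Some tailbud and streak genes were also called with E9.5 replicates 2 and 4 alone. Cdx1 had 17.9 to 37.8 at E8.5 and 0.594, 2.69, 6.6 and 9.08 at E9.5 (-2.95, SE 0.59, adjusted p = 0.008, and -2.44, adjusted p = 0.0316, with E9.5 replicates 2 and 4 alone). Cyp26a1, which breaks down retinoic acid at the tail end, had 22.7 to 29.2 at E8.5 and 4.41, 10.9, 2.75 and 13.7 at E9.5 (-1.89, SE 0.41, adjusted p = 0.0113, and -1.04, adjusted p = 0.0241). Fgf3, a growth factor of the streak and the hindbrain, had 6.24 to 9.71 at E8.5 and 3.51, 2.17, 1.21 and 3.28 at E9.5 (-1.49, SE 0.27, adjusted p = 0.00593, and -1.33, adjusted p = 0.0286). Gdf11, which promotes the switch from trunk to tail, was the single member that rose, also with E8.5 replicates 1 and 2 alone, from 4.97, 4.07, 3.56 and 3.04 to 13, 12.9, 11.1 and 10.3 (1.50, SE 0.16, adjusted p = 0.00147). With E8.5 replicates 1 and 2 alone Fgf3 was the single member that fell (-1.45, adjusted p = 0.0372), with Cdx1 and Cyp26a1 at adjusted p = 0.0619 and 0.0661.

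The Hox genes, whose order along each cluster parallels the order of body levels, varied widely among the E9.5 libraries. Of the 29 members tested across the 3 groups of paralogues, 1 rose and 1 fell, both of them in paralogues 1 to 4. Both shares were below the 10.7 and 13.3 percent of all genes. Hoxa2, which patterns the second arch and the hindbrain, had 4.01, 4.96, 2.41 and 1.53 at E8.5 and 7.18, 7.49, 11.4 and 5.82 at E9.5 (1.25, SE 0.32, adjusted p = 0.02). The Hoxa2 call was kept in 6 of the 8 fits that left out a library.

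Paralogues 5 to 8 had a mean level of 8.92, 8.92, 5.86 and 4.75 in the E8.5 libraries and of 0.127, 5.52, 8.4 and 11.2 at E9.5. Paralogues 9 to 13 had 4.86, 4.23, 2.52 and 2.43, and then 0.0553, 3.53, 4.29 and 7.21. E9.5 replicate 1 was close to empty of both groups while replicate 3, which was as poor in T and heart genes, held them. Hoxb9 had 55, 48, 21.9 and 18.6 at E8.5 and 0.0851, 14.5, 54.8 and 55.9 at E9.5. With E9.5 replicates 2 and 4 alone, the medians of the 3 groups of paralogues turned from 0.03, -0.18 and -0.59 to 0.60, 0.59 and 0.40. In that comparison Hoxc10, a gene of the posterior trunk and hindlimb level, rose from 0.666 to 1.15 at E8.5 to 9.43 and 12.5 (3.02, adjusted p = 0.0197), while over all 8 libraries it was not called (1.14, SE 0.90, adjusted p = 0.377).

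Heart muscle genes showed the same dependence on library. Of 51 listed, 41 were tested, 2 rose, 2 fell and the median was -0.52, which turned to 0.57 with E9.5 replicates 2 and 4 alone. The risen and the fallen share were 4.88 percent each, below the 10.7 and 13.3 percent of all genes. Myl7, the atrial myosin light chain, had 221, 126, 112 and 61.6 at E8.5 and 2.5, 197, 5.11 and 215 at E9.5 (-2.02, SE 1.33, adjusted p = 0.291). Tnnt2, cardiac troponin T, had 15.3, 9.5, 12 and 6.69, and then 0.169, 11.4, 0.421 and 12 (-1.82, SE 0.93, adjusted p = 0.179). Replicates 2 and 4 of E9.5 lay inside or close to the E8.5 range in both genes. The 2 members that rose, Hey1 (0.60) and Gja5 (1.41), are also expressed in arteries, and Hand1, which fell (-2.21, SE 0.65, adjusted p = 0.0352), is also a gene of the extraembryonic membranes and trophoblast. Gja5 entered the test only through E9.5, where it was high.

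Most genes of the neural progenitor list rose. All 27 listed neural progenitor genes were tested, 18 rose and none fell, with a median log2 fold change of 0.95. Of the 27, 1 passed the filter through a single stage. The list took 0.0854 to 0.12 percent of fragments at E8.5 and 0.175 to 0.315 percent at E9.5, with no overlap. With E9.5 replicates 2 and 4 alone 9 rose and none fell (median 0.81), and with E8.5 replicates 1 and 2 alone 11 rose and none fell (median 0.76).

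Zic1, a zinc finger factor of the dorsal neural tube and somites (chromosome 9, 91358058 to 91365810, minus strand), rose most of the genes that the naming rule took. Its level was 0.951, 2.1, 0.271 and 0.0595 at E8.5 and 26.3, 18.7, 21.5 and 4.63 at E9.5 (3.78, SE 0.59, adjusted p = 0.00338). Nes, the intermediate filament of neural progenitors, had 8.84, 9.67, 8.53 and 6.57 at E8.5 and 29.3, 38.8, 40.7 and 23.9 at E9.5 (1.90, SE 0.19, adjusted p = 0.00121). Sox2, which holds neural cells in a progenitor state, had 33.5, 32.6, 24 and 16 at E8.5 and 42.3, 48.1, 84 and 35.9 at E9.5 (0.95, SE 0.30, adjusted p = 0.0432). The Sox2 stages did not overlap, but its call was kept in 3 of the 8 fits that left out a library. The POU factors Pou3f2 (2.79) and Pou3f3 (2.98) and the Notch target Hes5 (2.66) rose in all 8 of those fits.

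Most listed genes of neuronal differentiation were below the filter. Of 21 proneural factors listed 8 were tested, 6 rose and none fell, but 4 of the 8, Neurog1 and Neurog2 among them, entered the test only through E9.5, where they were high. Neurog1, which commits cells to sensory and other neurons, had 0.261, 0.364, 0.237 and 0 at E8.5 and 8.93, 6.02, 10.7 and 1.27 at E9.5 (3.08, SE 0.51, adjusted p = 0.00423). Neurog2 had 0.385 to 0.898 and then 4.62, 5.88, 12.3 and 3.85 (2.60, SE 0.32, adjusted p = 0.00187). In both genes E9.5 replicate 4 was the lowest of its stage and still above all E8.5 libraries. Of 38 genes of postmitotic neurons, 22 were below the filter, 16 were tested, 2 rose and none fell. Tubb3, the neuronal tubulin, had 8.82 to 17.4 at E8.5 and 48.2, 26.5, 37 and 9.09 at E9.5, which overlapped (0.97, SE 0.45, adjusted p = 0.148).

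Genes that mark positions within the neural tube were listed for both its axes. Of 25 genes of the dorsoventral axis of the spinal cord 19 were tested, of which 3 passed through a single stage, and 10 rose and none fell (median 1.05). Dbx1, of intermediate progenitors, had 0.0273 to 0.671 at E8.5 and 6.44, 5.72, 10.2 and 2.81 at E9.5 (3.19, SE 0.38, adjusted p = 0.00176). Olig2, of motor neuron progenitors, had 0 to 0.849 and then 3.53, 2.32, 12.6 and 2.61 (2.52, SE 0.52, adjusted p = 0.00924). Gdf7, a signal from the roof plate, had 0.0308 to 0.24 and then 2.08, 3.82, 2.4 and 1.2 (2.20, SE 0.29, adjusted p = 0.00223). Dbx1, Olig2 and Gdf7 were the 3 members below 1 in every E8.5 library, so they entered the test only through E9.5. Among the 7 others that rose, Gli3 is described with the hedgehog genes. With E9.5 replicates 2 and 4 alone 4 of the list rose, and with E8.5 replicates 1 and 2 alone 5 rose, and none fell in either.

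Of 25 tested genes of brain regions, 3 of which passed the filter through a single stage, 9 rose and 3 fell. The fallen share, 12 percent, was near the 13.3 percent of all genes. Nkx2-1, of the ventral forebrain and the thyroid and lung rudiments, had 0 to 0.206 at E8.5 and 8.38, 2.11, 2.88 and 1.12 at E9.5 (2.53, SE 0.45, adjusted p = 0.00508). En2, of the boundary of midbrain and hindbrain, rose (1.88, SE 0.39, adjusted p = 0.00889). Egr2 (Krox20), of hindbrain segments 3 and 5, fell from 1.03 to 1.31 to 0.0644, 0.182, 0.769 and 0.566 (-0.93, SE 0.29, adjusted p = 0.0415). Hesx1, of the earliest forebrain and pituitary, fell (-0.78, SE 0.24, adjusted p = 0.0396). Egr2 was below 1 in every E9.5 library, so it entered the test only through E8.5, where its levels were just above 1. Nkx2-1 entered only through E9.5, where it was high. Egr2 and Hesx1 kept their calls in 2 and 3 of the 8 fits that left out a library. In the brain list, with E9.5 replicates 2 and 4 alone 2 genes rose and 1 fell, and with E8.5 replicates 1 and 2 alone 3 rose and 1 fell.

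**Figure D3:**
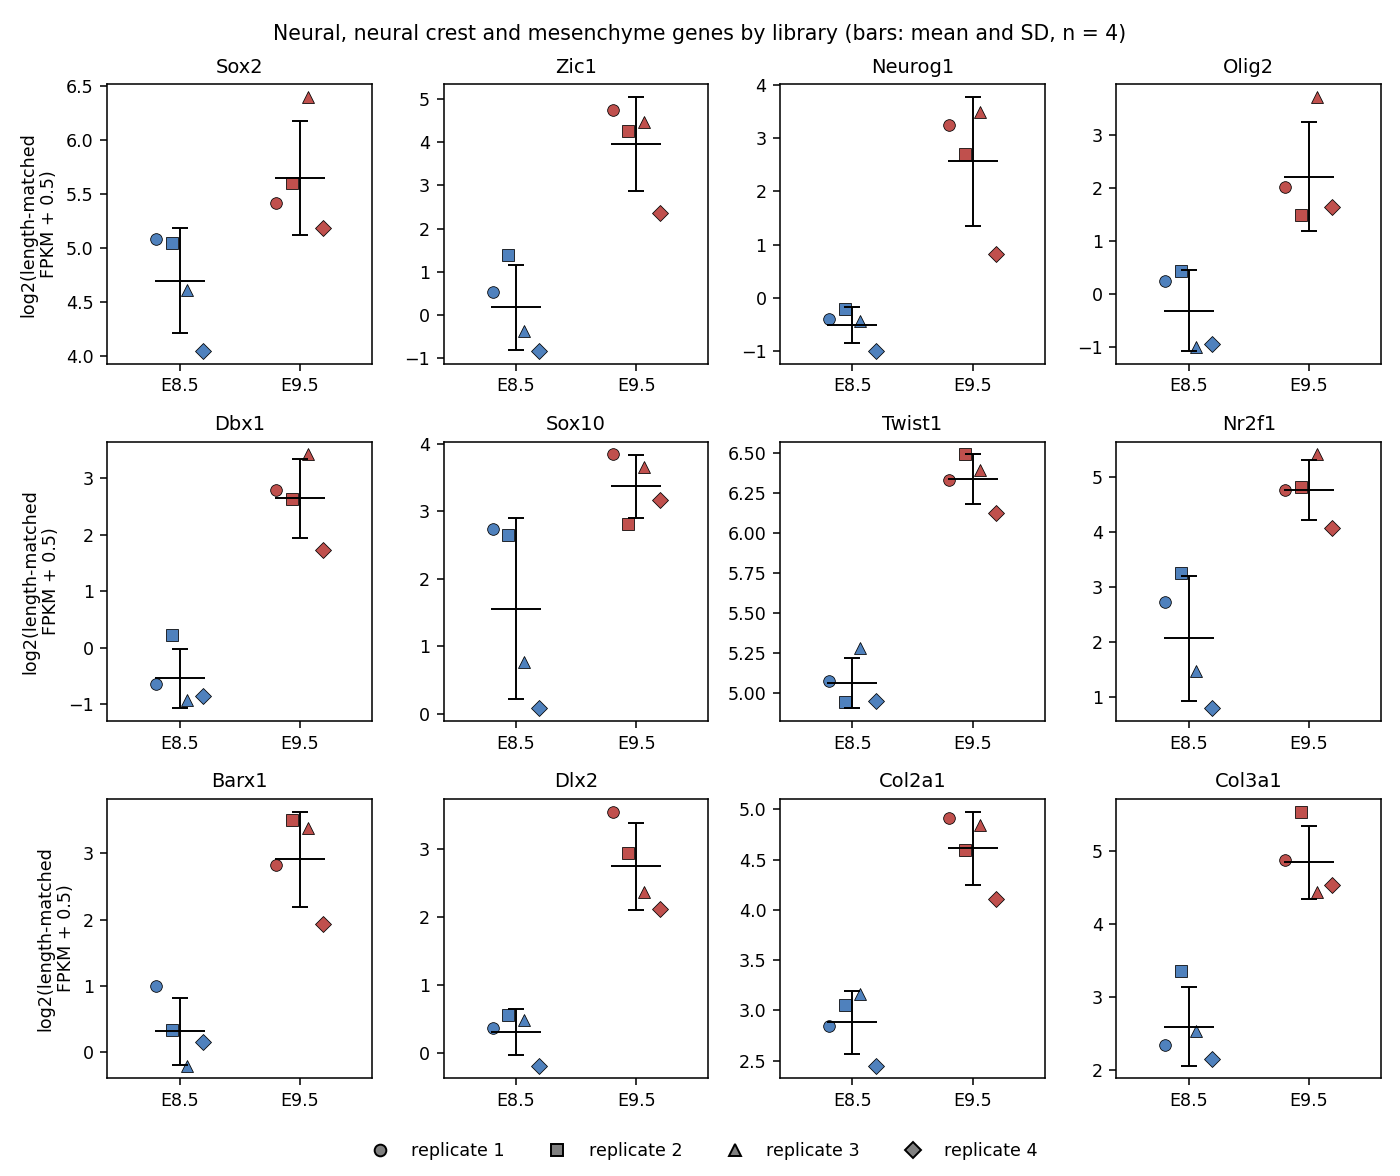
Level of 12 neural, neural crest and mesenchyme genes in each library, as log2(length-matched FPKM + 0.5), at E8.5 (blue) and E9.5 (red). Symbols mark the replicate number, and bars give the mean and SD of the 4 libraries. In each of the 12 genes the 4 E9.5 libraries lie above the 4 E8.5 libraries, but Neurog1, Olig2, Dbx1 and Dlx2 entered the test only through E9.5.

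Neural crest cells leave the neural tube and form the skeleton of the face, peripheral nerves and pigment cells. Of 31 neural crest genes 25 were tested, of which 2 passed through a single stage, and 14 rose and none fell, with a median of 0.90. Tfap2b had 0.24 to 1.53 at E8.5 and 8.99, 5.16, 4.45 and 2.64 at E9.5 (2.16, SE 0.40, adjusted p = 0.00617). Sox10, of migrating crest and glia, had 6.16, 5.79, 1.2 and 0.555 at E8.5 and 13.8, 6.53, 12.1 and 8.52 at E9.5 (1.81, SE 0.57, adjusted p = 0.0447). Sox10 was already near the lowest E9.5 library in E8.5 replicates 1 and 2, and with those replicates alone it was not called (0.67, adjusted p = 0.143). With E8.5 replicates 1 and 2 alone, 6 crest genes rose and none fell.

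Transcription factors of mesenchyme, the loose tissue from which connective tissue and skeleton form, had the largest share of risen genes among the lists plotted. Of 27 listed 23 were tested, of which 2 passed through a single stage, and 16 rose and none fell (median 0.82). With E9.5 replicates 2 and 4 alone 10 rose and none fell, and with E8.5 replicates 1 and 2 alone 11 rose and none fell. Twist1, which is needed for cranial mesenchyme and crest, had 33.3, 30.3, 38.4 and 30.4 at E8.5 and 79.9, 89.5, 83.7 and 69.2 at E9.5 (1.27, SE 0.13, adjusted p = 0.00121). Nr2f1 and Nr2f2, the orphan nuclear receptors COUP-TFI and COUP-TFII, rose by 2.70 (SE 0.50, adjusted p = 0.00616) and 1.91 (SE 0.23, adjusted p = 0.00176). Nr2f2 had 2.28 to 5.07 at E8.5 and 13.2, 13, 18.5 and 11.1 at E9.5.

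In the pharyngeal arches and placodes, 15 of 32 tested genes rose and 2 fell (median 0.84), and 2 of the 32 passed through a single stage. E9.5 replicates 2 and 4 alone gave 7 risen and 1 fallen. E8.5 replicates 1 and 2 alone gave 8 risen and none fallen. Barx1, of arch mesenchyme at the molars and, separately, of stomach mesenchyme, had 0.367 to 1.5 at E8.5 and 6.57, 10.9, 9.95 and 3.3 at E9.5 (2.59, SE 0.37, adjusted p = 0.00277). Dlx2, of crest in the arches, had 0.376 to 0.967 and then 11.2, 7.14, 4.65 and 3.83 (2.44, SE 0.31, adjusted p = 0.002). Dlx2 was below 1 in every E8.5 library, so it entered the test only through E9.5, where it was high. Alx4 and Foxi2, of facial mesenchyme and of the ectoderm around the ear, rose by 2.31 (SE 0.39, adjusted p = 0.00436) and 2.31 (SE 0.51, adjusted p = 0.0123). In Barx1 E9.5 replicate 4 was the lowest of its stage, as in the proneural genes. E9.5 replicate 1, which was poor in tail and heart RNA, had the highest Dlx2, Alx4 and Foxi2 of all libraries, and whether its share of head tissue set those values was not tested.

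The lists of somite derivatives held few tested genes. In the sclerotome list, 4 of 7 tested genes rose and none fell, and in the myotome list 4 of 8 rose and none fell. In each list 2 rose with E9.5 replicates 2 and 4 alone, and 2 with E8.5 replicates 1 and 2 alone. Pax1, of the sclerotome and pharyngeal pouches, had 0.089 to 0.869 at E8.5 and 1.74, 2.26, 8.78 and 1.58 at E9.5 (1.94, SE 0.49, adjusted p = 0.0201), and entered the test only through E9.5. Of the 19 tested genes of the segmentation clock and somite formation 4 rose and 1 fell, among them Meox2 (1.83, SE 0.39, adjusted p = 0.0105) and Foxc1 (1.35, SE 0.19, adjusted p = 0.0028). Of the 24 tested limb bud genes 8 rose (33.3 percent, against 10.7 percent of all genes) and none fell. Prrx1, of limb and facial mesenchyme, was among those that rose (1.42, SE 0.24, adjusted p = 0.00434). For limb bud genes, E9.5 replicates 2 and 4 alone gave 2 risen and none fallen. E8.5 replicates 1 and 2 alone gave 3 risen and none fallen. Tbx5, the factor that starts the forelimb, was not called (0.10, SE 0.53, adjusted p = 0.911), with 0.117 in E9.5 replicate 1 and 2.47 to 3.24 in the other 3.

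Matrix genes of cartilage and connective tissue were among those that rose. Of 44 tested matrix genes 10 rose and none fell (median 0.24). Col3a1, of loose connective tissue, had 4.58, 9.78, 5.26 and 3.92 at E8.5 and 28.9, 46.1, 21.1 and 22.8 at E9.5 (2.25, SE 0.30, adjusted p = 0.00223). Col2a1, of the notochord and cartilage, had 4.97 to 8.48 and then 29.6, 23.7, 28.2 and 16.8 (1.74, SE 0.21, adjusted p = 0.00181). Mfap4 of elastic fibres rose by 2.05 (SE 0.25, adjusted p = 0.00176). The basement membrane genes Col4a1, Lamb1 and Sparc were not called (-1.12, -0.93 and -0.96), and their highest values by far were in E8.5 replicate 4, the library rich in parietal endoderm and decidua, where Col4a1 was 377 against 27.4 to 105 in the other E8.5 libraries. These 3 genes are also members of the decidua and parietal endoderm list and were picked from it after their values were seen.

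Globins, the oxygen carriers of red cells, changed unevenly. Red cells at these stages are primitive ones from the yolk sac, which use the embryonic genes Hbb-y and Hbb-bh1 of the beta cluster and Hba-x of the alpha cluster, with adult alpha chains from Hba-a1 and Hba-a2. Of 7 tested globin genes, 4 rose and none fell. The promoters of 3 that rose are shown, to set the sequence of the genes beside their levels. They are the 250 bases before the start of each gene in RefSeq on GRCm38.p6, 5′ to 3′ on the strand of the gene, with matches on either strand in capitals to the CACCC box that Krüppel-like factors can bind, to the inverted or direct CCAAT box of many promoters, and to the GATAA word that GATA factors can bind.
Hbb-y, chr7:103853208-103853457, minus strand: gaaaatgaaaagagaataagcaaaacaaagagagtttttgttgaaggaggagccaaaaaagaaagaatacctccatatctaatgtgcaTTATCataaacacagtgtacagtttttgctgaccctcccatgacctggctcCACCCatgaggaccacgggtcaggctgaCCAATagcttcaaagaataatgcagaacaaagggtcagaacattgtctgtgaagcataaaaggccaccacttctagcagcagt
Hba-x, chr11:32276350-32276599, plus strand: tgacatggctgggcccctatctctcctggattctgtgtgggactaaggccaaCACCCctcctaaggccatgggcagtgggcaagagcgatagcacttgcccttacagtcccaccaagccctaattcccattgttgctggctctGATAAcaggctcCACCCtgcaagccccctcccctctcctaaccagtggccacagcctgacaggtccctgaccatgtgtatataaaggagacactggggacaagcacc
Hba-a1, chr11:32283422-32283671, plus strand: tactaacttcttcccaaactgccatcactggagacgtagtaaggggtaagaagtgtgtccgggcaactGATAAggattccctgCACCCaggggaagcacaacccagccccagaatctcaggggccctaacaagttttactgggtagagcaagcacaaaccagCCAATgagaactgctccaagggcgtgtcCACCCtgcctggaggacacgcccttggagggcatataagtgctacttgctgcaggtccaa

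These letters are common in promoters. Of 32841 promoter windows of the same length 52.0 percent held CACCC, 33.9 percent CCAAT and 22.6 percent GATAA on either strand, and 3.5 percent held all 3. Hbb-y and Hba-a1 held all 3, and Hba-x held CACCC and GATAA but no CCAAT in this window. A match describes the letters and is not a measured site.

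Hbb-y rose most of the globins. Its level was 381, 710, 148 and 117 at E8.5 and 1823, 2319, 3920 and 2627 at E9.5 (3.29, SE 0.52, adjusted p = 0.00349). Hbb-bh1, the other embryonic beta-type gene, had 1435, 2026, 2245 and 2208 at E8.5 and 2139, 2300, 3651 and 4760 at E9.5, which overlapped (0.64, SE 0.28, adjusted p = 0.128). Within a library, the ratio of Hbb-y to Hbb-bh1 was 0.266, 0.350, 0.0660 and 0.0531 at E8.5 and 0.852, 1.01, 1.07 and 0.552 at E9.5. The ratio sets both genes against each other within the same library, and it was higher in all E9.5 libraries than in all E8.5 libraries. Within E8.5, it was higher in replicates 1 and 2 than in 3 and 4.

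Of the alpha cluster, Hba-x had 715, 809, 1041 and 913 at E8.5 and 1615, 1146, 2809 and 1989 at E9.5 (1.06, SE 0.26, adjusted p = 0.0191). Hba-a1 had 137, 163, 168 and 133, and then 320, 203, 534 and 328 (1.12, SE 0.25, adjusted p = 0.013). Hba-a1 and Hba-a2 are near-identical copies, so their split is uncertain, and Hba-a2 rose as well (2.21, SE 0.27, adjusted p = 0.00179). The ratio of the adult alpha genes together to Hba-x was 0.152 to 0.21 at E8.5 and 0.18 to 0.211 at E9.5, which overlapped. The adult beta genes Hbb-bs and Hbb-bt stayed at 34.5 or below and were not called (0.43, adjusted p = 0.362, and -0.23, adjusted p = 0.662). All globins together took 0.193 to 0.265 percent of fragments at E8.5 and 0.451 to 0.853 percent at E9.5.

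**Figure D4:**
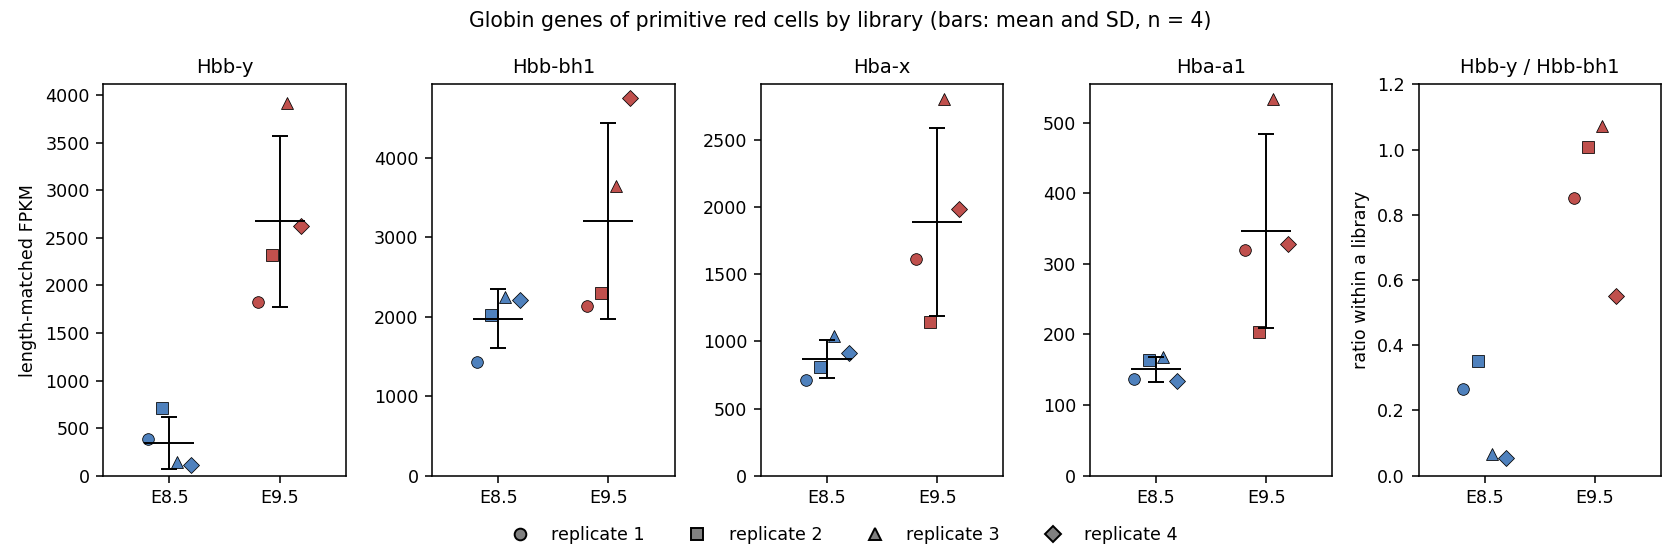
Length-matched FPKM of Hbb-y, Hbb-bh1, Hba-x and Hba-a1 in each library on linear axes from 0, with mean and SD of 4 libraries, and the ratio of Hbb-y to Hbb-bh1 within each library. The ratio lies between 0.0531 and 0.350 in the E8.5 libraries and between 0.552 and 1.07 in the E9.5 libraries.

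Among other genes of red cells, the counts depended on the E8.5 libraries used. Slc4a1, the anion exchanger of the red cell membrane, had 7.92, 10.8, 4.84 and 3.42 at E8.5 and 27, 18.8, 33.7 and 32.6 at E9.5 (2.06, SE 0.32, adjusted p = 0.00338). Alas2, the red cell enzyme that starts haem synthesis, had 9.24 to 11.9 and then 26.8, 17.1, 39.1 and 28.8 (1.23, SE 0.22, adjusted p = 0.00544). Of 36 tested red cell genes other than globins 6 rose and 1 fell (16.7 and 2.78 percent, against 10.7 and 13.3 percent of all genes). With E8.5 replicates 1 and 2 alone 8 rose and 1 fell (median 0.35), and with E8.5 replicates 3 and 4 alone 3 rose and 7 fell (median -0.23), where 8.8 percent of all genes rose and 12.8 percent fell. The regulators Gata1 and Klf1 were not called (-0.81, SE 0.40, adjusted p = 0.166, and -0.39, SE 0.40, adjusted p = 0.506), with their highest levels in E8.5 replicates 3 and 4. Aqp8, a water channel on the red cell list, fell (-4.33, SE 0.67, adjusted p = 0.00338) from 12.9, 5.35, 57.1 and 50.7 to 0.104, 0.874, 0.699 and 0.904, and its E8.5 levels were highest in the libraries with the most visceral endoderm RNA. Aqp8 entered the test only through E8.5, where it was high.

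Of 36 tested endothelial genes 9 rose and 4 fell, with a median of 0.32. These were 25 and 11.1 percent, against 10.7 and 13.3 percent of all genes, so the fallen share was below that of all genes. Of the 36, 2 passed the filter through a single stage. The pan-endothelial genes Pecam1 and Cdh5 were not called (0.00, SE 0.19, adjusted p = 0.99, and 0.35, SE 0.19, adjusted p = 0.21). Etv2, which starts the endothelial and blood programme, had 11.6, 14.3, 13.1 and 13.6 at E8.5 and 4.02, 2.82, 3.84 and 7.34 at E9.5 (-1.52, SE 0.24, adjusted p = 0.00335). Lyve1, a hyaluronan receptor of early vessels, had 3.43 to 6.04 and then 0, 1.42, 0.465 and 0.979 (-2.19, SE 0.39, adjusted p = 0.0052). Gja5, the arterial gap junction protein, had 0.216 to 0.679 at E8.5 and 2.51, 1.65, 1.11 and 2.93 at E9.5 (1.41, SE 0.30, adjusted p = 0.00963). Gja5 was below 1 in every E8.5 library, so it entered the test only through E9.5, where it was high. Emcn, of veins and capillaries, rose (1.43, SE 0.28, adjusted p = 0.0079). Apln and Sox17 fell as well.

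Hedgehog signals pattern the neural tube, somites and gut, and most tested genes of the pathway were called. Of 15 tested genes 8 rose and 1 fell, with a median of 0.50. E9.5 replicates 2 and 4 alone gave 3 risen and none fallen. E8.5 replicates 1 and 2 alone gave 5 risen and 1 fallen. Gas1, a co-receptor, had 17, 25.6, 14.5 and 12.5 at E8.5 and 63.2, 46.8, 54.5 and 37.3 at E9.5 (1.54, SE 0.23, adjusted p = 0.00302). The other co-receptors Cdon and Boc rose by 1.27 and 1.06 (SE 0.18 and 0.21, adjusted p = 0.00271 and 0.00725), and the transcription factor Gli3 by 1.30 (SE 0.17, adjusted p = 0.00207). The target genes Gli1 and Ptch1 were not called (0.40, SE 0.21, adjusted p = 0.192, and 0.13, SE 0.21, adjusted p = 0.691). The ligands went opposite ways: Shh rose (0.50, SE 0.15, adjusted p = 0.0347) in a call kept in 2 of 8 fits that left out a library, and Ihh, which the visceral endoderm makes, fell from 4.23, 2.33, 16 and 11.3 to 0.018, 0.766, 0.28 and 1.12 (-2.90, SE 0.56, adjusted p = 0.00694).

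Among Wnt pathway genes, 10 of 45 tested rose and 3 fell (median 0.34). The risen share was 22.2 percent against 10.7 percent of all genes, and the fallen share 6.67 percent against 13.3 percent. Of 31 receptors, inhibitors and targets 9 rose and 2 fell, and of 14 ligands 1 rose and 1 fell. Sfrp2, a secreted Wnt binder, had 13.1, 10.8, 7.24 and 4.69 at E8.5 and 36.3, 27.5, 62.5 and 25.4 at E9.5 (2.02, SE 0.35, adjusted p = 0.00442). Fzd3, a receptor of axon guidance and neural tube closure, rose by 1.38 (SE 0.20, adjusted p = 0.00277). Wnt8a, a ligand of the primitive streak, fell from 1.33 to 9.09 to 0.0818 to 0.881 (-2.46, SE 0.54, adjusted p = 0.0117). Wnt8a was below 1 in every E9.5 library, so it entered the test only through E8.5, where it was high. For retinoic acid 6 of 16 tested genes rose and 4 fell. Cyp26b1, which breaks retinoic acid down in the hindbrain and limb, rose from 0.179 to 1.11 to 4.45, 6.27, 10.6 and 2.31 (2.53, SE 0.41, adjusted p = 0.00388), opposite in direction to its tailbud paralogue Cyp26a1.

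Glucose and lactate transporters were among the abundant genes that fell. Slc2a3 (GLUT3) had 380, 352, 687 and 445 at E8.5 and 76.4, 82.3, 36.6 and 117 at E9.5 (-2.63, SE 0.34, adjusted p = 0.00198). Slc2a1 (GLUT1) had 311, 301, 344 and 257, and then 109, 99.2, 101 and 144 (-1.42, SE 0.15, adjusted p = 0.00147). Slc16a1 (MCT1), which carries lactate, had 125, 96, 253 and 247, and then 25.9, 42.2, 27.4 and 52.2 (-2.21, SE 0.35, adjusted p = 0.00339). All 3 fell in all 8 fits that left out a library, with E9.5 replicates 2 and 4 alone and with E8.5 replicates 1 and 2 alone. The ratio of Slc2a3 to Slc2a1 within a library was 1.17 to 1.997 at E8.5 and 0.361 to 0.830 at E9.5. Of 25 tested glycolysis genes 5 fell (20 percent, against 13.3 percent of all genes) and none rose, and Gapdh was not called (-0.02, SE 0.25, adjusted p = 0.968). The glycolysis counts depended on the E8.5 libraries used. Replicates 1 and 2 of E8.5 alone gave 10 fallen and 1 risen (median -0.61), and replicates 3 and 4 alone 4 fallen and 1 risen (median -0.04).

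**Figure D5:**
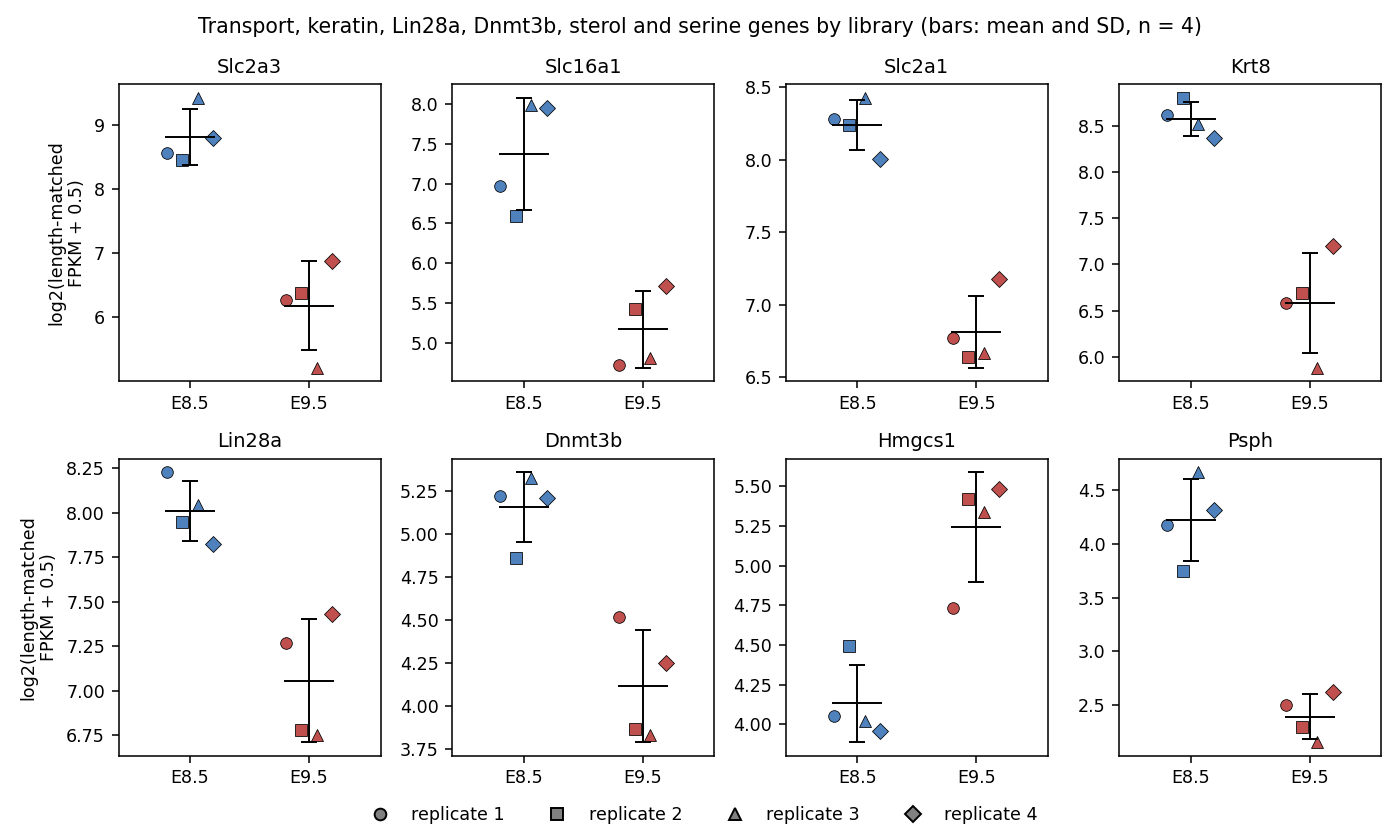
Level of 8 genes in each library, as log2(length-matched FPKM + 0.5), at E8.5 (blue) and E9.5 (red). Symbols mark the replicate number, and bars give the mean and SD of the 4 libraries. Hmgcs1 is higher at E9.5 and the other 7 genes are lower, and no gene shown has overlapping stages.

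Metabolic genes outside glycolysis moved in both directions. Psph, the last enzyme of serine synthesis, had 17.6, 12.9, 24.9 and 19.4 at E8.5 and 5.15, 4.39, 3.95 and 5.65 at E9.5 (-1.84, SE 0.20, adjusted p = 0.00147). Its amino acid and ATF4 response list had 17 tested genes, of which 4 fell and none rose (median -0.13). The fallen share was 23.5 percent, against 13.3 percent of all genes. Of 23 tested sterol synthesis genes 9 rose and 1 fell (median 0.46), among them Hmgcs1, an early enzyme of the pathway, from 16.1, 22, 15.8 and 15.1 to 26.1, 42.3, 40.1 and 44.2 (1.11, SE 0.19, adjusted p = 0.0044). Ebp, a later enzyme of the same pathway, fell (-0.81, SE 0.15, adjusted p = 0.00573).

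Of 78 tested nuclear genes of the respiratory chain 23 fell and none rose (median -0.35), but with a gene length trend removed 4 fell and 4 rose (median -0.13). E9.5 replicates 2 and 4 alone gave 3 fallen and none risen. E8.5 replicates 1 and 2 alone gave 14 fallen and 1 risen. Of 13 mitochondrially encoded mRNAs 6 fell and none rose (median -0.56), and with the length trend removed 6 fell and none rose (median -0.29). Of 79 cytosolic ribosomal protein genes 3 rose and 2 fell, of 40 mitosis genes 2 rose and 4 fell, and of 48 replication genes 2 rose and 4 fell. Each of these shares was below the share of all genes called in the same direction. Cdk1, the mitotic kinase, fell from 41.9 to 66.9 to 31.3 to 38.3 (-0.69, SE 0.15, adjusted p = 0.0124).

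Replication-dependent histone mRNAs and the small nuclear RNA Rn7sk carry no poly(A) tail. Of 37 tested histone genes, 3 of which passed the filter through a single stage, 12 rose and 1 fell (median 1.40). Limited to E9.5 replicates 2 and 4, 8 rose and none fell, and with E8.5 replicates 1 and 2 alone 4 rose and none fell. Hist1h3i had 0.712, 0.853, 1.53 and 0.687 at E8.5 and 8.66, 5.91, 16.3 and 6.02 at E9.5 (2.67, SE 0.32, adjusted p = 0.00176). Rn7sk, which holds back transcription elongation, had 6.04, 8.74, 4.31 and 12.4 and then 56.9, 28.1, 168 and 107 (3.24, SE 0.51, adjusted p = 0.00341). Histone fragments were 0.0115 and 0.0127 percent in E9.5 replicates 1 and 2, and 0.0343 and 0.0261 percent in replicates 3 and 4. The share of fragments in annotated small noncoding and ribosomal RNA genes split the same 4 libraries the other way, at 1.62 and 1.84 percent in replicates 1 and 2 and 0.0547 and 0.0752 percent in replicates 3 and 4, against 0.483 to 0.901 percent at E8.5. Histone genes are near-identical copies, so their counts are uncertain one by one, and how RNA selection in library making moved these values was not tested.

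Of 28 tested imprinted genes 6 rose and 4 fell, with a median of 0.04. These were 21.4 and 14.3 percent, against 10.7 and 13.3 percent of all genes, so the fallen share was near that of all genes. In all 8 fits that left out a library, 2 of the risen and 2 of the fallen kept their calls. Igf2, the fetal growth factor expressed from the paternal copy, had 13.3, 19.2, 22.8 and 21.2 at E8.5 and 21, 36.6, 31.9 and 41.8 at E9.5 (0.75, SE 0.23, adjusted p = 0.0419). H19, the maternally expressed RNA next to it, had 1629, 1531, 2492 and 2268, and then 600, 1140, 904 and 1602 (-0.96, SE 0.30, adjusted p = 0.044). The stages overlapped in both genes, and the calls were kept in 1 and 2 of the 8 fits that left out a library. Mest, expressed from the paternal copy in mesoderm, rose from 151 to 258 to 323 to 496 (0.79, SE 0.21, adjusted p = 0.0233), and Zdbf2 rose (0.83, SE 0.18, adjusted p = 0.012).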

How the data were processed

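Per the labels' protocols, libraries were made with a NEBNext Ultra kit from DNase-treated total RNA that had been isolated in TRIzol. FPKM, in which fragments are divided by library depth and gene length, is the unit in which the authors deposited their tables. The submitters' processing notes name GRCm38, mm10 and DESeq2, while no source used here gives the aligner or the use of strand. The authors divided by mean transcript length in the E8.5 table and by the union of exons in the E9.5 table, as found by recovering whole fragments with GENCODE M21 lengths. Where annotated lengths gave no whole numbers, a length was solved from the values (642 of 12101 genes tested). At least 99.9 percent of values were then whole within 0.02 fragments. Depth-scaled fragments were divided by the E9.5 gene length, scaled by median of ratios, and tested as log2(value + 0.5) with limma 3.58.1 (trend) in R 4.3.3, after a test on simulated data. Genes were named by a rule on lists and on size of change. Lrp2, Serpina1b, Cubn, Mttp, Fga, Fgb, Fgg, Hnf4a, Tpbpa, Prl3d1, Nanog, Nes, Col4a1, Lamb1, Sparc, Alas2, Gata1, Klf1, Pecam1, Cdh5, Gli1 and Ptch1 were chosen after their values were seen. Some items are not reported here. The members and lists were chosen with earlier results of these data known.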

Additional observations from a re-analysis of the deposited data

Results flagged for a closer look

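Of 54 groups of 4 libraries examined, 3 held a library whose gap to its nearest neighbour exceeded Dixon's critical share of the range of its group, and chance gives about 1 in 20. E8.5 replicate 4 had 0.959 percent of fragments in genes of decidua and parietal endoderm, against 0.2, 0.21 and 0.319 percent in the other E8.5 libraries. The same library had 0.901 percent in small noncoding RNA genes, against 0.483, 0.514 and 0.53 percent. Afp was 95.1 in E9.5 replicate 2, against 0, 3.22 and 15 in the others of that stage.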

How the results depend on the processing

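The counts of called genes stayed within 1.5 times of 2896 (1290 risen, 1606 fallen) under other scalings, pseudocounts, filters, trends and gene classes, from 2107 with no filter to 3221 with annotated lengths for all genes, the latter chosen after seeing the data. Deposited FPKM, which carry different gene lengths in the stages, gave 7203 called genes (3173 risen, 4030 fallen). Leaving out a library gave 1801 to 2658 called genes (798 to 1164 risen, 1003 to 1494 fallen). E9.5 replicates 2 and 4 alone gave 1031 (448 risen, 583 fallen), and E8.5 replicates 1 and 2 alone gave 1695 (804 risen, 891 fallen), with fewer samples. With deposited FPKM the fold changes of Dicer1 and Pcif1 turned to -0.012 and -0.11, and with E8.5 replicates 1 and 2 against E9.5 replicates 2 and 4, also chosen after seeing the data, that of Hbb-bs turned to -0.48. With the replicate number as a block 2734 genes were called (1248 risen, 1486 fallen). Libraries with the same number had correlations of deviations of 0.184, -0.117, -0.106 and 0.0909, and 1 of 4 correlated best with its own number, so the numbers were not taken to pair samples. Depth limits genes near 0, and 4 libraries a stage limit the precision.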
